A study of Saccharomyces cerevisiae with 12 samples.

Results

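Budding yeast cells under reductive stress were compared in a crossed design of 2 backgrounds, with and without the HAC1 (YFL031W) gene, each without and with a change named (hsf1), and the measure of interest was the interaction of these factors. For each gene the interaction was the difference hac1∆(hsf1) minus hac1∆, less the difference WT(hsf1) minus WT. It is above 0 where the signal rose more, or fell less, with (hsf1) in cells without HAC1 than in cells with it. The reverse case is below 0, and the signal levels themselves are not compared. All 12 arrays of the series entered, and the interaction was computed for all 5449 annotated S. cerevisiae genes, each represented by its probe set of highest mean signal. The strains were WT, WT(hsf1), hac1∆ and hac1∆(hsf1), with 3 biological replicates each, grown to early exponential phase in synthetic medium without uracil and then exposed to 2.5 mM dithiothreitol (DTT) for 2 h. DTT reduces disulfide bonds and so disturbs protein folding in the endoplasmic reticulum (ER); every culture received it. What (hsf1) denotes, whether both backgrounds carry the same change, and which parental strain was used are not in the labels, so (hsf1) serves below as a strain name. Because RNA of whole cultures was measured, fewer expressing cells and less RNA per cell cannot be told apart. RNA was labelled with biotin and hybridised to Affymetrix yeast arrays, and each value below is a log2 signal.

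Hac1 is the transcription factor of the yeast unfolded protein response. Ire1, a sensor in the ER membrane, splices HAC1 mRNA when unfolded proteins accumulate, and the Hac1 protein then induces ER chaperones, oxidative folding enzymes, degradation factors and lipid synthesis. Hsf1 is the essential heat shock transcription factor, which drives cytosolic and mitochondrial chaperone genes and has some targets in the ER, the Hsp70 gene KAR2 among them. A separate programme, the environmental stress response, acts when yeast is stressed or grows slowly. It raises protective genes, in part through Msn2 and Msn4, and lowers genes for ribosomes and their assembly.

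The genes that the strain names refer to were examined first. HAC1 signals were 10.80, 10.37 and 10.58 in WT, 10.86, 10.82 and 10.71 in WT(hsf1), 5.23, 5.24 and 5.23 in hac1∆ and 5.25, 5.31 and 5.21 in hac1∆(hsf1). Both hac1∆ strains thus lay at the level of background, which was set at 5.49, the 95th percentile of probe sets taken as those of another yeast on the same array. HSF1 (YGL073W) signals were 8.08, 9.61 and 8.11 in WT, 8.63, 8.51 and 8.41 in WT(hsf1), 7.75, 7.86 and 7.87 in hac1∆ and 10.54, 10.81 and 10.66 in hac1∆(hsf1). Every hac1∆(hsf1) array was above all others, the array labelled WT replicate 2 was the next highest, and the WT(hsf1) arrays lay within the range of the WT arrays. Between WT(hsf1) and WT the HSF1 difference was -0.08 ± 0.30 (SE, n = 3 per strain; adjusted p = 0.831), and between hac1∆(hsf1) and hac1∆ it was 2.84 ± 0.30 (adjusted p = 5.63e-06). Without WT replicate 2 the WT difference of HSF1 turned to 0.43 (adjusted p = 0.000387), and the interaction of HSF1 went from 2.92 ± 0.42 (adjusted p = 4.13e-05) to 2.42 (adjusted p = 7.34e-10).

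The array labelled WT replicate 2 stood apart from the other WT arrays in the direction of hac1∆(hsf1). Across all genes it correlated with the hac1∆(hsf1) arrays at r between 0.973 and 0.978, while WT replicate 1 gave 0.942 to 0.951 and WT replicate 3 gave 0.939 to 0.948. Among the 1442 genes that were higher in hac1∆(hsf1) than in hac1∆, a comparison that uses no WT array, WT replicate 2 read above both other WT arrays for 952 (66%), against 38.8% of all genes. Among the 1673 lower genes it read below both for 1064 (63.6%), against 38.5% of all genes. Results are therefore given with all arrays and again without this array, and what sets it apart was not tested.

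The interaction passed the test, a limma fit with Benjamini-Hochberg adjusted p under 0.05, for most genes of the array. It was above 0 for 1945 of 5449 genes (35.7%) and below 0 for 1850 (34%), that is for 3795 (69.6%) in either direction. It amounted to a factor of at least 2 for 446 genes above 0 and 470 below, and to a factor of at least 4 for 114 and 96. Without WT replicate 2 the counts were 1930 and 1846, and 3682 of the 3795 genes kept their call and sign, 113 lost the call and 0 turned. In both directions together 3924 genes had an unadjusted p under 0.05. On a linear scale, with each value taken as a power of 2, the interaction of the strain means had the same sign for 1941 of the 1945 and 1850 of the 1850 genes.

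Of the 3795 genes, 1862 were called in both backgrounds and in opposite directions. WT(hsf1) differed from WT upward for 1760 genes (32.3%) and downward for 1840 (33.8%), or 66.1% in all. hac1∆(hsf1) differed from hac1∆ upward for 1442 (26.5%) and downward for 1673 (30.7%), or 57.2% in all. Of the 2296 genes called in both comparisons, 1862 (81.1%) had opposite signs and 434 (18.9%) had the same sign. The opposite genes comprised 853 that were lower in WT(hsf1) and higher in hac1∆(hsf1) (15.7% of all genes) and 1009 that were higher in WT(hsf1) and lower in hac1∆(hsf1) (18.5%). The same-sign genes comprised 186 higher in both (3.41%) and 248 lower in both (4.55%). Another 1304 genes were called only in the WT pair, 819 only in the hac1∆ pair and 1030 in neither; a call in 1 pair alone does not show a difference between the pairs, and the interaction was called for 602 above 0 and 446 below 0 of the first group, and for 324 and 302 of the second. Without WT replicate 2 the opposite classes held 823 and 983 genes and the same-sign classes 251 and 276, and 77.4% of the 2333 genes called in both had opposite signs.

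The sizes of the 2 (hsf1) differences, which share no array, were inversely related across the 5449 genes, with Pearson's r = -0.44 and Spearman's rho = -0.48, or -0.37 and -0.41 without WT replicate 2. This is a description across genes, which are not independent replicates, and all arrays of the study share the normalization of the deposit. Single arrays showed the same split: for 2056 genes (37.7%) the 3 arrays of both strains did not overlap in either pair and the pairs moved in opposite directions, and for 516 (9.47%) they did not overlap and moved the same way. The WT pair had the wider spread of differences, with an SD across genes of 0.55 against 0.42 in the hac1∆ pair. The median difference over all genes was -0.01 in each pair, and the median interaction was 0.01.

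**Figure D1:**
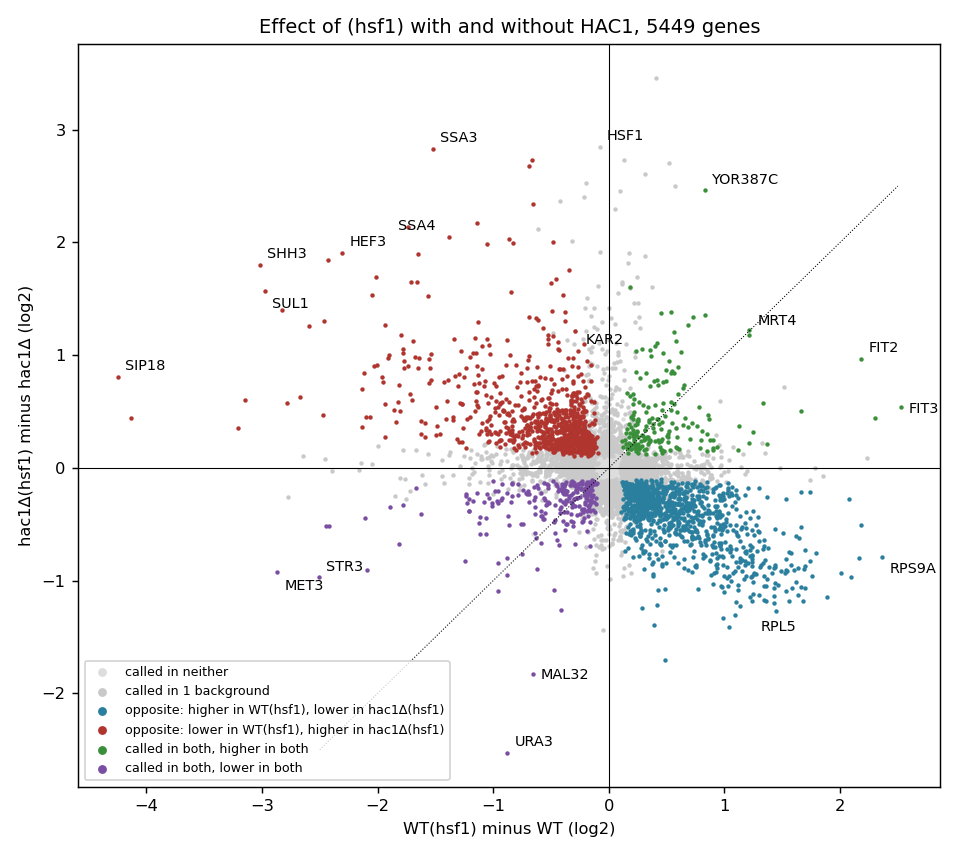
Each point is 1 of 5449 genes, with its log2 difference WT(hsf1) minus WT on the horizontal axis and hac1∆(hsf1) minus hac1∆ on the vertical axis, coloured by the calls in both pairs; the dotted line marks equal differences. The 1862 opposite genes fill the upper left and lower right quadrants, the 434 same-sign genes lie in the other 2, and SIP18, SSA3, RPS9A and URA3 are among the labelled genes.

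The order of the 4 strain means was described for the called genes. All 4 means enter the interaction with equal weight, so the call itself partly fixes their order. Of the 1945 genes with an interaction above 0, the mean was highest in hac1∆(hsf1) for 1267 and lowest in WT(hsf1) for 1485, and both held for 1010 (51.9%). Of the 1850 genes below 0, the mean was highest in WT(hsf1) for 1417 and lowest in hac1∆(hsf1) for 1277, and both held for 1064 (57.5%). The 2 (hsf1) strains were thus the outer strains for most of the genes in each direction. WT was highest for 513 of the genes above 0 and lowest for 453 of those below.

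Genes of the general stress response had the highest median interaction of the lists. All 27 members of the list had an interaction above 0, against 35.7% of all genes, with a median of 1.64 (1.58 without WT replicate 2) and a range from 0.41 to 5.05. This list and those below were chosen with earlier results of these data known, so their shares are descriptions and not tests. In the WT pair 26 of 27 were lower with (hsf1), in the hac1∆ pair 23 were higher, and 22 did both, beside 33.8%, 26.5% and 15.7% of all genes. The median difference was -1.23 in the WT pair and 0.44 in the hac1∆ pair. SIP18 (YMR175W), which encodes a hydrophilin that protects cells during desiccation, gave the largest interaction of the array. Its signals were 11.17, 11 and 11.24 in WT, 6.63, 6.83 and 7.20 in WT(hsf1), 8.95, 9.19 and 9.05 in hac1∆ and 9.88, 9.96 and 9.76 in hac1∆(hsf1). The 4 strains did not overlap, WT being highest and WT(hsf1) lowest. SIP18 was lower by a log2 difference of -4.25 ± 0.12 in the WT pair and higher by 0.80 ± 0.12 in the hac1∆ pair, so that the interaction was 5.05 ± 0.17, a factor of 33.1 (adjusted p = 2.13e-10; 5.12 without WT replicate 2).

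GRE1 (YPL223C), a related hydrophilin gene, read 11.27, 11.15 and 11.35 in WT, 7.07, 6.77 and 7.52 in WT(hsf1), 9.33, 9.78 and 9.56 in hac1∆ and 9.85, 10.05 and 10.10 in hac1∆(hsf1). Its arrays did not overlap between any 2 strains, and the interaction was 4.58 ± 0.22 (adjusted p = 2.36e-09). The rise of GRE1 in the hac1∆ pair, 0.44, lost its call when single arrays of that pair were left out, and so did that of CTT1, while the interactions of both stayed called. CTT1, which encodes the cytosolic catalase, had an interaction of 3.56 ± 0.17, from -3.21 in the WT pair and 0.35 in the hac1∆ pair. HSP30, a stress protein of the plasma membrane, had differences of -1.74 and 2.14 and an interaction of 3.88 ± 0.20. HSP12, which encodes a small membrane-binding heat shock protein, had differences of -0.89 and 0.36 and an interaction of 1.26 ± 0.07. SPG4 (YMR107W), needed for survival in stationary phase at high temperature, read 10.49, 10.64 and 10.50 in WT, 7.89, 8.04 and 8.42 in WT(hsf1), 8.79, 8.87 and 8.93 in hac1∆ and 10.89, 10.58 and 10.68 in hac1∆(hsf1). WT lay close to hac1∆(hsf1) and far above WT(hsf1), and the SPG4 interaction was 4.28 ± 0.16 (adjusted p = 4.09e-10).

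Reserve carbohydrate genes followed the same pattern. For trehalose and glycogen metabolism 16 of 16 members had an interaction above 0 and 0 below, beside 35.7% and 34% of all genes, with a median of 1.21. Of these genes 13 were called lower in WT(hsf1) and higher in hac1∆(hsf1), beside 15.7% of all genes. GPH1, the glycogen phosphorylase gene, had -1.94 in the WT pair, 1.26 in the hac1∆ pair and an interaction of 3.20 ± 0.15. PGM2, a phosphoglucomutase gene, had -1.78, 1.02 and 2.80 ± 0.13, and TSL1, a subunit of the trehalose synthase complex, had -1.12, 0.75 and 1.87 ± 0.09. GDB1, which encodes the glycogen debranching enzyme, had an interaction of 1.70 ± 0.08. Genes of oxidative stress defence and thiol redox balance counted 23 of 30 members higher and 4 lower in the interaction, beside the same shares of all genes, with a median of 0.79. OYE3, an NADPH oxidoreductase gene, and GPX1, a glutathione peroxidase gene, moved in opposite directions in the pairs, with interactions of 2.93 ± 0.13 and 2.66 ± 0.13. SRX1, which encodes sulfiredoxin, had an interaction of 2.31 ± 0.17, while TSA2, a peroxiredoxin gene, fell by 2.05 in the WT pair, differed by 0.04 without a call in the hac1∆ pair, and had an interaction of 2.08 ± 0.09.

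**Figure D2:**
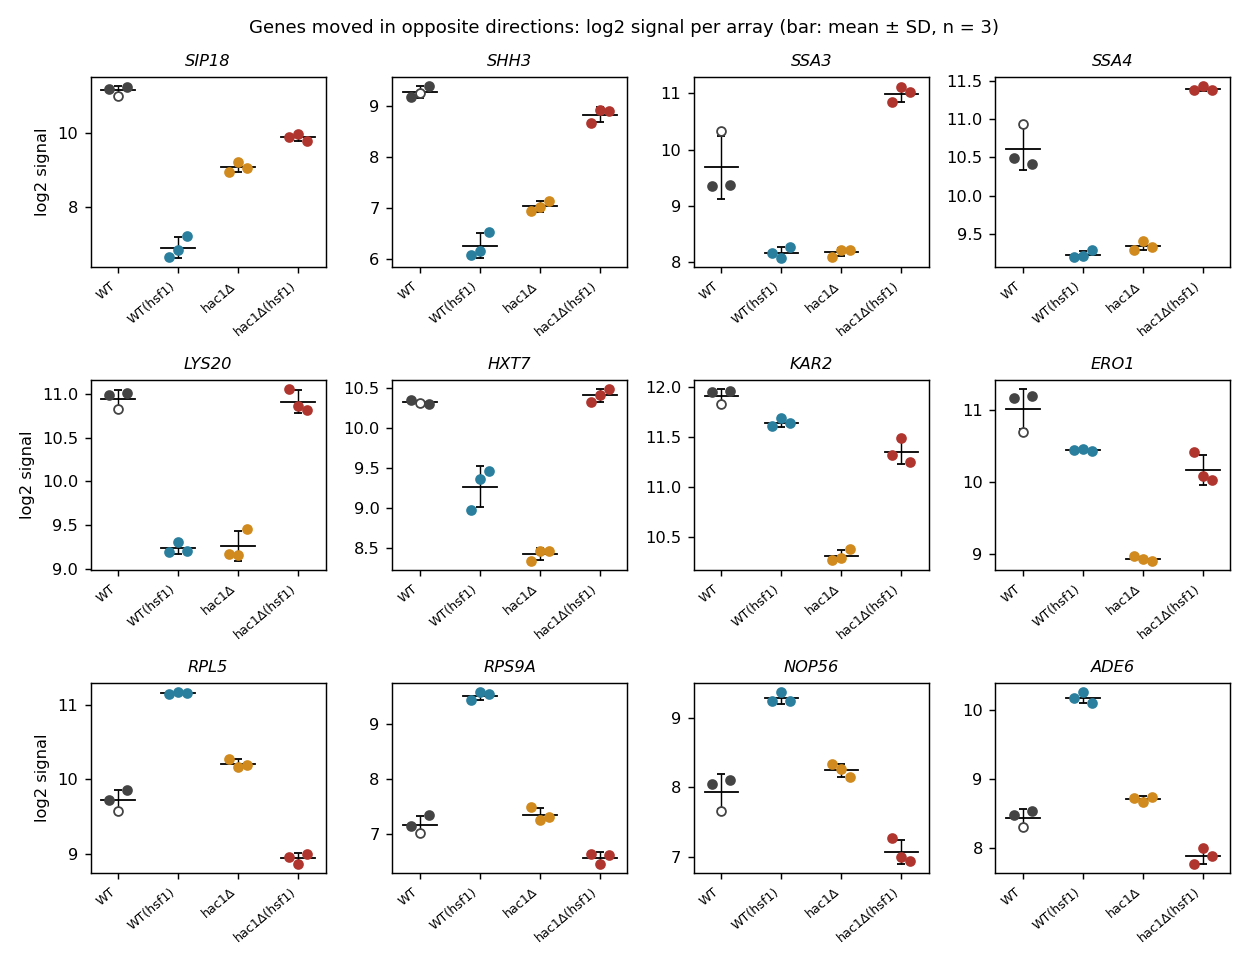
Log2 signal of 12 genes whose (hsf1) differences had opposite signs, 1 panel per gene with its own vertical axis and the 4 strains on the horizontal axis; points are arrays, bars the mean ± SD of n = 3, and the open circle is WT replicate 2. In the upper 2 rows WT(hsf1) lies below WT and hac1∆(hsf1) above hac1∆; in the bottom row the order is turned, and for SSA3 and SSA4 the open circle lies apart from the other WT arrays.

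Most cytosolic chaperones, many of them targets of Hsf1, were lower with (hsf1) in cells with HAC1 and higher with it in cells without HAC1. The list counted 21 of 26 members higher and 4 lower in the interaction, beside 35.7% and 34% of all genes, with a median of 0.80 (0.78 without WT replicate 2), and 17 members were called lower in the WT pair and higher in the hac1∆ pair, beside 15.7% of all genes. SSA3 (YBL075C), a stress-inducible Hsp70 gene, read 9.36, 10.33 and 9.37 in WT, 8.15, 8.07 and 8.27 in WT(hsf1), 8.09, 8.2 and 8.22 in hac1∆ and 10.84, 11.12 and 11.02 in hac1∆(hsf1). WT(hsf1) and hac1∆ were alike and low, hac1∆(hsf1) was highest on every array, and WT replicate 2 lay between it and the other WT arrays. The SSA3 differences were -1.52 ± 0.20 and 2.82 ± 0.20, and the interaction was 4.35 ± 0.28 (adjusted p = 2.35e-08; 4.03 without WT replicate 2). SSA4 (YER103W), the other strongly inducible Hsp70 gene, read 10.49, 10.94 and 10.41 in WT, 9.20, 9.21 and 9.29 in WT(hsf1), 9.30, 9.41 and 9.33 in hac1∆ and 11.38, 11.43 and 11.37 in hac1∆(hsf1). WT(hsf1) and hac1∆ were again low and hac1∆(hsf1) highest, with an interaction of 3.43 ± 0.15 (adjusted p = 8.05e-10; 3.27 without WT replicate 2).

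Other heat shock genes had smaller interactions. HSP104, the disaggregase gene, had an interaction of 1.02 ± 0.08, from -0.70 in the WT pair and 0.32 in the hac1∆ pair. HSP82, the inducible Hsp90 gene, had -0.57, 0.28 and an interaction of 0.85 ± 0.06, and SSA1, a major cytosolic Hsp70 gene, had -0.43, 0.24 and 0.68 ± 0.09. HSP104, HSP82 and SSA1 were called with opposite signs in the pairs, also without WT replicate 2. SSB1 and SSB2 (YNL209W), a pair of Hsp70 genes whose products bind nascent chains at the ribosome, went the other way. SSB2 read 9.43, 9.16 and 9.28 in WT, 10.60, 10.70 and 10.47 in WT(hsf1), 10.09, 10.02 and 10.10 in hac1∆ and 8.89, 9.07 and 8.88 in hac1∆(hsf1). WT(hsf1) was highest and hac1∆(hsf1) lowest without overlap, and the interactions were -2.43 ± 0.11 for SSB2 and -2.0 ± 0.10 for SSB1. SSB1 and SSB2, and the SSA genes, are near-identical in parts, and probes could share signal between such copies.

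Mitochondrial chaperones, of which several are Hsf1 targets, included members that rose with (hsf1) in both backgrounds, HSP60 (YLR259C), HSP10 and SSC1. The list counted 4 of 11 members higher and 2 lower in the interaction, beside 35.7% and 34% of all genes, with a median of 0.01; its difference from the cytosolic list was not tested. HSP60, which encodes the mitochondrial chaperonin, read 10.87, 11.04 and 10.87 in WT, 11.52, 11.57 and 11.46 in WT(hsf1), 10.83, 10.88 and 10.94 in hac1∆ and 11.34, 11.43 and 11.38 in hac1∆(hsf1). Both (hsf1) strains were above their partners on every array. HSP60 was higher by 0.59 ± 0.06 in the WT pair and by 0.50 ± 0.06 in the hac1∆ pair, and the interaction was -0.09 ± 0.08 (adjusted p = 0.328; 95% interval -0.26 to 0.08); with both arrays numbered 2 left out it was -0.17 and was called (adjusted p = 0.0476). Its co-chaperonin gene HSP10 rose by 0.32 and 0.34, with an interaction of 0.02 ± 0.06 (95% interval -0.10 to 0.14). SSC1, the gene of the mitochondrial import Hsp70, rose by 0.29 and 0.29, with an interaction of 0.01 ± 0.08 (95% interval -0.17 to 0.19). HSP78, the mitochondrial disaggregase gene, and ECM10, a further mitochondrial Hsp70 gene, had opposite signs as the cytosolic genes did, with interactions of 0.95 ± 0.07 and 0.71 ± 0.10. MGE1, the nucleotide exchange factor of SSC1, had 0.68 and -0.32, the latter call ending when single arrays were left out, and an interaction of -1.0 ± 0.15, and MDJ1, its J-protein partner, had an interaction of 0.46 ± 0.13. JAC1 and SSQ1, which serve iron-sulfur cluster assembly, had interactions of -0.22 ± 0.07 and 0.19 ± 0.07, the SSQ1 call ending under quantile normalization, under median centring and for most of the single arrays left out; those of MDJ2 (-0.10 ± 0.19) and ZIM17 (-0.01 ± 0.07) were not called.

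Among regulators of the stress response the interaction was mostly above 0. The list of heat shock and stress regulators counted 7 of 10 members higher and 1 lower, beside 35.7% and 34% of all genes. YAK1, a kinase gene that opposes growth signalling through protein kinase A, had an interaction of 1.25 ± 0.09, and RIM15, a kinase gene of quiescence entry, had 0.93 ± 0.10. RPN4, the transcription factor of proteasome genes and itself a target of Hsf1, had -0.49 in the WT pair, 0.57 in the hac1∆ pair and an interaction of 1.06 ± 0.09. IRA2, a Ras GTPase activator gene, had an interaction of 0.92 ± 0.09, and PDE2, the high-affinity cAMP phosphodiesterase gene, one of -0.96 ± 0.09. MSN2 and MSN4, which encode the general stress factors themselves, had interactions of 0.21 ± 0.07 and 0.25 ± 0.09, that of MSN4 losing its call without hac1∆ replicate 1; those of YAP1 (0.21 ± 0.11) and SKN7 (-0.05 ± 0.10) were not called, that of YAP1 being called when single arrays were left out. Proteasome genes counted 20 of 34 members higher and 0 lower, beside the same shares of all genes, with 14 not called and a median interaction of 0.22. Their median differences were -0.22 in the WT pair and -0.03 in the hac1∆ pair, and the largest interaction was that of RPN13, a ubiquitin receptor subunit, at 0.59 ± 0.10, followed by BLM10 at 0.49 ± 0.10, SCL1 at 0.47 ± 0.08 and PRE4 at 0.39 ± 0.07.

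ER protein folding genes, the core of the unfolded protein response, were divided between genes with an interaction above 0, KAR2 (YJL034W) and ERO1 (YML130C) among them, and genes without a call. The list counted 7 of 17 members higher and 1 lower, with 9 not called and a median of 0.05 (0.14 without WT replicate 2), beside 35.7% and 34% of all genes called higher and lower. KAR2, the Hsp70 of the ER lumen and a target of both Hac1 and Hsf1, read 11.94, 11.83 and 11.96 in WT, 11.60, 11.68 and 11.64 in WT(hsf1), 10.28, 10.29 and 10.38 in hac1∆ and 11.32, 11.49 and 11.25 in hac1∆(hsf1). It was highest in WT and lowest in hac1∆, and the strains did not overlap. KAR2 fell by 0.27 in the WT pair, a call that ended under quantile normalization, and rose by 1.04 in the hac1∆ pair, with an interaction of 1.31 ± 0.09 (adjusted p = 3.78e-08; 1.35 without WT replicate 2). ERO1, the thiol oxidase gene of oxidative folding, read 11.16, 10.70 and 11.20 in WT, 10.45, 10.46 and 10.44 in WT(hsf1), 8.97, 8.93 and 8.91 in hac1∆ and 10.41, 10.09 and 10.03 in hac1∆(hsf1). hac1∆ was lowest without overlap, and the interaction of ERO1 was 1.81 ± 0.17 (adjusted p = 8.22e-07; 1.97 without WT replicate 2). Read across the backgrounds, loss of HAC1 went with a KAR2 difference of -1.60 without (hsf1) and -0.29 with it, and with an ERO1 difference of -2.08 and -0.27.

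PDI1 and other folding genes went differently. PDI1, the protein disulfide isomerase gene, had -0.17 in the WT pair, a call lost when single arrays of that pair were left out, -0.21 in the hac1∆ pair, and an interaction of -0.04 ± 0.08 (adjusted p = 0.669; 95% interval -0.22 to 0.14). SIL1, the exchange factor gene of Kar2, fell by 0.79 in the WT pair, differed by 0.03 without a call in the hac1∆ pair, and had an interaction of 0.82 ± 0.13. JEM1, a J-protein gene of the ER, had an interaction of 0.56 ± 0.17. Over the folding list the median difference with loss of HAC1 was -0.98 without (hsf1), with 14 of 17 lower (all genes, 22.3%), and -0.51 with it, with 12 lower (all genes, 35.8%; lower in both comparisons, 8.02%). Among the signalling genes of the response, IRE1 had 0.13 and -0.16, calls that ended when single arrays were left out, and an interaction of -0.29 ± 0.07. TRL1, the ligase that joins the HAC1 exons, had an interaction of -0.54 ± 0.09, PTC2, a phosphatase gene that acts on Ire1, one of 0.64 ± 0.08, and GCN4, a transcription factor gene, one of -0.63 ± 0.09. ADA2, a subunit of the SAGA coactivator, had 0.95 ± 0.27, while SPT20, another SAGA subunit, had 0.13 ± 0.07 and HAC1 itself -0.20 ± 0.12, neither being called, though HAC1 was called at -0.31 without WT replicate 1. HAC1 in the hac1∆ pair was at background in both strains, so its interaction holds only the WT pair.

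Other lists of the secretory pathway moved in different directions, and their counts stand beside 35.7% of all genes called higher and 34% called lower. Genes of ER-associated degradation counted 8 of 17 members higher and 0 lower, with a median interaction of 0.23; HLJ1, a J-protein gene of the ER membrane, had 0.93 ± 0.14, and UBC7, a ubiquitin-conjugating enzyme gene, had 0.74 ± 0.07. NPL4 and UFD1, partners of the Cdc48 segregase, had interactions of 0.63 ± 0.10 and 0.50 ± 0.10. ER translocation genes went the other way, with 2 of 22 members higher and 14 lower and a median of -0.40. SRP72, a signal recognition particle subunit, had 0.35 in the WT pair, -0.67 in the hac1∆ pair and an interaction of -1.03 ± 0.10; SEC66, of the Sec63 complex, had -0.99 ± 0.11, and SPC3, of the signal peptidase, -0.95 ± 0.12. Glycosylation and GPI anchor genes counted 5 of 36 members higher and 20 lower, with a median of -0.34. PMT4, a protein O-mannosyltransferase gene, had an interaction of -1.47 ± 0.09, ALG5 and ALG8, which build the lipid-linked oligosaccharide, had -1.04 ± 0.09 and -0.94 ± 0.09, and OST2, an oligosaccharyltransferase subunit, went up with 1.07 ± 0.11. ER-Golgi transport genes counted 8 of 32 members higher and 10 lower, no more than the 35.7% and 34% of all genes, with a median of -0.06: EMP46 and ERV29, both cargo receptor genes, had 1.47 ± 0.07 and 1.06 ± 0.08, and COP1, of the COPI coat, and ERP2, of the p24 family, had -0.95 ± 0.09 and -0.86 ± 0.14. Phospholipid and inositol genes counted 11 of 17 members higher and 2 lower, with a median of 0.30; INO1, the inositol synthase gene, had 0.74 ± 0.07, its activators INO2 and INO4 had 0.91 ± 0.13 and 0.87 ± 0.07, and PIS1, the phosphatidylinositol synthase gene, had -0.74 ± 0.09.

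Autophagy and vacuolar protease genes counted 19 of 21 members higher and 1 lower in the interaction, beside 35.7% and 34% of all genes, with a median of 0.68, and peroxisome and beta-oxidation genes counted 19 of 24 members higher and 1 lower, with a median of 0.79. ATG3, of the Atg8 conjugation system, had -1.06, 1.15 and an interaction of 2.20 ± 0.16, and ATG8 had 1.14 ± 0.16; the mitophagy gene ATG33 and the receptor gene ATG34 had 1.28 ± 0.09 and 1.15 ± 0.08. POT1 and FOX2, enzymes of beta-oxidation, had interactions of 2.55 ± 0.14 and 2.42 ± 0.14, with opposite signs in the pairs; TES1, a peroxisomal thioesterase gene, had 1.48 ± 0.10 and PEX2, a peroxisome biogenesis gene, 1.31 ± 0.12. TCA and glyoxylate cycle genes counted 14 of 24 members higher and 3 lower, beside 35.7% and 34% of all genes, and 8 were lower in both pairs, beside 4.55%; IDP3, the peroxisomal isocitrate dehydrogenase gene, had 2.04 ± 0.11, MLS1, malate synthase, 1.65 ± 0.13, and MDH1, mitochondrial malate dehydrogenase, 1.51 ± 0.07. HXT7 (YDR342C), a high-affinity hexose transporter gene, read 10.34, 10.31 and 10.30 in WT, 8.97, 9.35 and 9.47 in WT(hsf1), 8.33, 8.46 and 8.46 in hac1∆ and 10.33, 10.41 and 10.49 in hac1∆(hsf1). hac1∆ was lowest on every array, and WT and hac1∆(hsf1) were alike and high. Its interaction was 3.04 ± 0.14 (adjusted p = 1.41e-09), and that of HXT5 was 2.96 ± 0.16; HXT1, the low-affinity transporter gene, had -1.53 ± 0.12 and HXT2 -1.21 ± 0.11. HXT genes are similar in sequence, and of 18 hexose transport genes 8 were higher, 2 lower and 8 not called, beside 35.7% and 34% of all genes higher and lower.

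**Figure D3:**
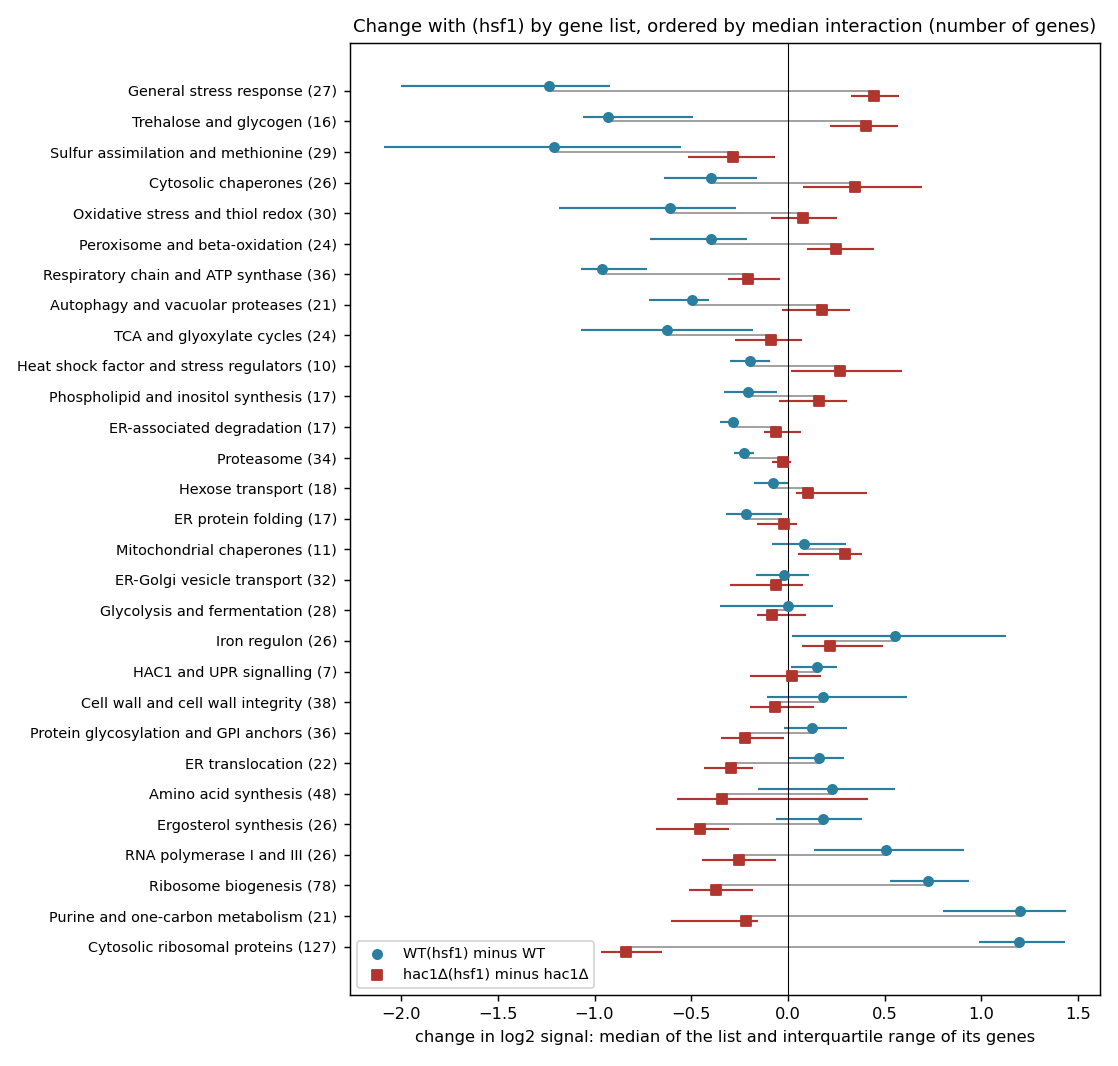
For each gene list, named at the left with its number of genes, the circle gives the median log2 difference WT(hsf1) minus WT and the square hac1∆(hsf1) minus hac1∆, with the interquartile range of the genes as lines; lists are ordered by median interaction. General stress genes stand at the top, with -1.23 and 0.44, and cytosolic ribosomal protein genes at the bottom, with 1.19 and -0.84; for sulfur and respiratory genes both medians are below 0, and for the iron regulon both are above.

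Genes of ribosomes and ribosome assembly formed the reverse pattern, higher with (hsf1) in cells with HAC1 and lower with it in cells without. Of 127 cytosolic ribosomal protein genes 126 had an interaction below 0, against 34% of all genes. Upward in the WT pair and downward in the hac1∆ pair were 124, against 18.5% of all genes. The median difference was 1.19 in the WT pair and -0.84 in the hac1∆ pair, and the median interaction was -2.01 (-1.95 without WT replicate 2). The exception was RPL15B, with 0.09 ± 0.09 (adjusted p = 0.415), named here after its value was seen. RPS9A (YPL081W), a small subunit protein gene, had the lowest interaction of the array and read 7.15, 7.02 and 7.33 in WT, 9.45, 9.59 and 9.55 in WT(hsf1), 7.48, 7.25 and 7.30 in hac1∆ and 6.63, 6.44 and 6.6 in hac1∆(hsf1). WT(hsf1) was far above the rest and hac1∆(hsf1) lowest, with no overlap between either and any other strain. The RPS9A differences were 2.36 ± 0.09 and -0.79 ± 0.09, and the interaction was -3.15 ± 0.12 (adjusted p = 4.43e-10; -3.08 without WT replicate 2).

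RPS22B, RPL17B and RPL22B followed, with interactions of -3.06 ± 0.13, -3.03 ± 0.11 and -2.97 ± 0.12, and RPS8B, RPS24B and RPL6B had -2.85 ± 0.12, -2.77 ± 0.10 and -2.76 ± 0.09. RPL5 (YPL131W), whose product carries 5S RNA into the large subunit, read 9.72, 9.58 and 9.86 in WT, 11.15, 11.18 and 11.17 in WT(hsf1), 10.28, 10.17 and 10.20 in hac1∆ and 8.96, 8.86 and 9.0 in hac1∆(hsf1). Its 4 strains did not overlap, with hac1∆ above WT and the (hsf1) strains at the ends. RPL5 moved by similar amounts in opposite directions, 1.44 ± 0.07 against -1.27 ± 0.07, and had an interaction of -2.72 ± 0.09. RPS7A, RPS1A and RPS22A were similar, with -2.63 ± 0.13, -2.42 ± 0.19 and -2.74 ± 0.23. ASC1, the RACK1 homologue on the small subunit, had an interaction of -2.94 ± 0.07, and STM1, which binds inactive ribosomes, one of -2.53 ± 0.07. Most yeast ribosomal protein genes are near-identical pairs, and probes could share signal within a pair, so the members are not independent measurements.

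Ribosome biogenesis genes counted 2 of 78 members higher and 73 lower in the interaction, beside 35.7% and 34% of all genes, with a median of -1.15. Upward in the WT pair and downward in the hac1∆ pair were 59, beside 18.5% of all genes. NOP56 (YLR197W), a core protein of box C/D snoRNPs, read 8.05, 7.65 and 8.11 in WT, 9.24, 9.38 and 9.23 in WT(hsf1), 8.33, 8.26 and 8.14 in hac1∆ and 7.27, 7.0 and 6.94 in hac1∆(hsf1). WT(hsf1) was highest and hac1∆(hsf1) lowest, and WT replicate 2 was the lowest of the WT arrays. The interaction of NOP56 was -2.52 ± 0.16 (adjusted p = 2.26e-08; -2.38 without WT replicate 2), that of its partner NOP58 -2.40 ± 0.12, that of the rRNA methyltransferase gene NOP1 -2.30 ± 0.07 and that of NSR1, the nucleolin homologue, -2.34 ± 0.11. RNA polymerase I and III genes counted 2 of 26 members higher and 20 lower, with a median of -0.80; the largest subunit of polymerase I, RPA190, had -1.96 ± 0.15, RPA49 and RPA43 had -2.05 ± 0.09 and -1.66 ± 0.08, and RPC40, shared by both enzymes, had -1.50 ± 0.07. Members of the biogenesis list that were higher with (hsf1) in both backgrounds numbered 4 of 78, a share near the 3.41% of all genes. They were DRS1, ESF2, NOP10 and UTP20, named after their values were seen. MRT4, an assembly gene that was also higher in both, is not on the list and is described below.

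The purine, ergosterol and amino acid lists had more members called below 0 than above, beside 34% and 35.7% of all genes. Purine and one-carbon genes counted 1 of 21 members higher and 18 lower, with a median of -1.48. ADE6 (YGR061C), of de novo purine synthesis, read 8.48, 8.31 and 8.54 in WT, 10.18, 10.27 and 10.11 in WT(hsf1), 8.73, 8.67 and 8.75 in hac1∆ and 7.77, 8.0 and 7.89 in hac1∆(hsf1). WT(hsf1) was highest and hac1∆(hsf1) lowest, with no overlap between the strains. Its interaction was -2.57 ± 0.10 (adjusted p = 4.91e-10), and ADE13, GUA1 and IMD3, of AMP and GMP synthesis, had -2.34 ± 0.10, -2.45 ± 0.09 and -2.37 ± 0.10. Ergosterol genes counted 3 of 26 members higher and 22 lower, with a median of -0.57; ERG4, of the last step, had -1.92 ± 0.10, ERG1, squalene epoxidase, -1.33 ± 0.10, HMG1, HMG-CoA reductase, -1.22 ± 0.09, and ERG3 -1.14 ± 0.10. Amino acid synthesis genes counted 15 of 48 members higher and 26 lower, with a median of -0.47, and GLN1, glutamine synthetase, had -2.30 ± 0.08.

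Among the amino acid genes with an interaction above 0 were those of lysine synthesis. LYS20 (YDL182W), which encodes homocitrate synthase, read 10.99, 10.82 and 11.01 in WT, 9.19, 9.31 and 9.20 in WT(hsf1), 9.17, 9.16 and 9.46 in hac1∆ and 11.06, 10.86 and 10.81 in hac1∆(hsf1). WT and hac1∆(hsf1) formed a high group and WT(hsf1) and hac1∆ a low group, with no array between them. The LYS20 differences were -1.71 ± 0.09 and 1.65 ± 0.09, and the interaction was 3.36 ± 0.13 (adjusted p = 4.09e-10). LYS9, saccharopine dehydrogenase, had -2.04, 1.54 and an interaction of 3.58 ± 0.12, and LYS1, of the last step, had -1.56, 0.97 and 2.53 ± 0.12. LYS2, LYS4, LYS12 and LYS21, named after their values were seen, had interactions of 1.37 ± 0.09, 1.81 ± 0.08, 1.27 ± 0.12 and 1.04 ± 0.15 and opposite signs as well. These lysine genes were called lower in WT(hsf1) and higher in hac1∆(hsf1).

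Other strongly opposed genes were of mixed function. SUL1 (YBR294W), a sulfate permease gene and the sulfur list member with the largest interaction, read 8.72, 8.62 and 8.55 in WT, 5.70, 5.51 and 5.74 in WT(hsf1), 6.87, 7.30 and 6.54 in hac1∆ and 8.39, 8.53 and 8.49 in hac1∆(hsf1). WT was just above hac1∆(hsf1), hac1∆ was lower, and WT(hsf1) lay near background. Its interaction was 4.54 ± 0.20 (adjusted p = 1.04e-09), and the floor of the scale limits how low WT(hsf1) could read. EGO4 had differences of -2.01 and 1.69, YHR033W -1.66 and 1.65, and YOR186W -1.65 and 1.90, with interactions of 3.70 ± 0.13, 3.31 ± 0.13 and 3.55 ± 0.14. Both differences reached a factor of 2 in opposite directions for 35 genes that were lower in WT(hsf1) and 32 that were higher, and a factor of 1.5 for 120 and 191. The hac1∆ difference was the larger of the pair for 315 of the 853 and 298 of the 1009 genes.

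Several opposed genes are paralogues of a housekeeping gene, and these pairs were picked after the values were seen. HEF3 (YNL014W), a paralogue of the translation elongation factor gene YEF3, read 9.45, 9.47 and 9.55 in WT, 6.98, 7.01 and 7.57 in WT(hsf1), 7.59, 7.74 and 7.67 in hac1∆ and 9.49, 9.45 and 9.76 in hac1∆(hsf1). WT(hsf1) and hac1∆ were low, and the other strains were high without overlap with them. HEF3 had an interaction of 4.21 ± 0.19, while YEF3 had -1.79 ± 0.09. TKL2, a transketolase gene, had 4.23 ± 0.18 against -0.71 ± 0.06 for TKL1; GND2, of the pentose phosphate pathway, had 3.30 ± 0.11 against -0.63 ± 0.10 for GND1; and PDC6, a pyruvate decarboxylase gene, had 3.75 ± 0.20 against -0.47 ± 0.07 for PDC1. PMA2, a proton pump gene, had 3.77 ± 0.19 against 0.08 ± 0.10 for PMA1, which was not called (95% interval -0.13 to 0.30). CYC7, the minor cytochrome c gene, had 2.12 ± 0.16 against -0.81 ± 0.14 for CYC1. SHH3 (YMR118C), a paralogue of the succinate dehydrogenase gene SDH3, read 9.17, 9.26 and 9.40 in WT, 6.08, 6.16 and 6.54 in WT(hsf1), 6.93, 7.03 and 7.14 in hac1∆ and 8.67, 8.93 and 8.90 in hac1∆(hsf1). WT was highest and WT(hsf1) lowest; the SHH3 interaction was 4.81 ± 0.16 (adjusted p = 2.13e-10) against 0.77 ± 0.09 for SDH3, which was lower in both pairs.

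Genes moved the same way in both backgrounds were fewer, and most of them had no called interaction. Of the 186 genes higher in both, the interaction was called above 0 for 37, below 0 for 42 and not called for 107, of which 96 had a 95% interval of the interaction within 0.5 of 0 on the log2 scale. Of the 248 genes lower in both, the counts were 88 above 0, 17 below and 143 not called, of which 141 had such an interval. The median differences were 0.39 in the WT pair and 0.34 in the hac1∆ pair for the genes higher in both, and -0.37 and -0.27 for those lower in both. WT replicate 2 read above both other WT arrays for 129 of the 186 genes (69.4%), against 38.8% of all genes. Without it 177 of the 186 were still called higher in both. For the 248 genes lower in both it read below both other WT arrays for 109 (44%), against 38.5% of all genes. Without it 236 of these were still called lower in both.

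Among the genes higher in both, MRT4 (YKL009W), TAT1 and FIT2 (YOR382W) had the largest rises, by the smaller of the differences in both pairs. MRT4, a ribosome assembly gene, read 7.82, 8.46 and 7.97 in WT, 9.30, 9.31 and 9.29 in WT(hsf1), 7.82, 7.73 and 7.86 in hac1∆ and 8.93, 8.95 and 9.19 in hac1∆(hsf1). Both (hsf1) strains were above their partners on every array, and WT replicate 2 was the highest WT array. MRT4 rose by 1.21 ± 0.13 and 1.22 ± 0.13, with an interaction of 0.01 ± 0.18 (adjusted p = 0.962; 95% interval -0.38 to 0.40; -0.18 without WT replicate 2). TAT1, an amino acid permease gene, rose by 1.22 ± 0.12 and 1.18 ± 0.12, with an interaction of -0.04 ± 0.18 (95% interval -0.42 to 0.34). ATO3, of the ammonium export family, rose by 0.65 and 0.73, with an interaction of 0.08 ± 0.16 (95% interval -0.26 to 0.42). OLA1, an ATPase gene, rose by 0.68 and 1.26, GPI12, of GPI anchor synthesis, by 0.73 and 1.34, and ATC1 by 0.83 and 1.35; their interactions were 0.58 ± 0.20, 0.61 ± 0.16 and 0.52 ± 0.20, that of ATC1 losing its call when single arrays were left out. Without WT replicate 2 those of OLA1 and ATC1 were 0.35 and 0.30. YOR387C read 9.80, 9.68 and 9.95 in WT, 10.16, 10.71 and 11.06 in WT(hsf1), 5.65, 5.82 and 5.84 in hac1∆ and 7.98, 8.33 and 8.40 in hac1∆(hsf1). hac1∆ was near background, all other strains were well above it, and the interaction was 1.64 ± 0.25 (adjusted p = 7.56e-05). On a linear scale the interaction of YOR387C was below 0, so its direction depends on the log scale.

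The iron regulon, which serves iron uptake and recycling, rose in part in both backgrounds, and FIT2, FIT3 and SIT1 rose by more in cells with HAC1. Of 26 members 17 were higher in the WT pair, 14 in the hac1∆ pair and 11 in both, against 32.3%, 26.5% and 3.41% of all genes. The interaction counted 4 higher, or 7 without hac1∆(hsf1) replicate 1, and 11 lower, with a median of -0.12. Of all genes 35.7% were higher and 34% lower in the interaction. FIT2, a cell wall mannoprotein gene that retains iron siderophores, read 8.01, 8.34 and 8.27 in WT, 10.22, 10.37 and 10.58 in WT(hsf1), 7.52, 7.58 and 7.52 in hac1∆ and 8.45, 8.57 and 8.48 in hac1∆(hsf1). WT(hsf1) was highest by a wide margin, and hac1∆(hsf1) was above hac1∆ on every array. FIT2 rose by 2.18 ± 0.09 and 0.96 ± 0.09, with an interaction of -1.22 ± 0.13 (adjusted p = 2.89e-06), and its relative FIT3 by 2.53 and 0.54, with -1.99 ± 0.13. SIT1, a siderophore transporter gene, rose by 2.30 and 0.45, with an interaction of -1.85 ± 0.08. FET3 (YMR058W), the multicopper ferroxidase gene, read 7.34, 7.18 and 7.32 in WT, 9.48, 9.48 and 9.59 in WT(hsf1), 6.62, 6.99 and 6.83 in hac1∆ and 6.76, 7.03 and 6.92 in hac1∆(hsf1). WT(hsf1) alone was high, and FET3 had 2.24 in the WT pair, an uncalled 0.09 in the hac1∆ pair and an interaction of -2.15 ± 0.13; FRE1, a ferric reductase gene, had -1.48 ± 0.21.

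Genes lower in both backgrounds included sulfur and respiratory genes, most of which had an interaction above 0. Sulfur assimilation and methionine genes counted 15 of 29 lower in both, against 4.55% of all genes. In the interaction 20 of 29 members were higher and 3 lower, beside 35.7% and 34% of all genes. The medians were -1.21 in the WT pair and -0.28 in the hac1∆ pair, and the median interaction was 1.14. MET3 (YJR010W), which encodes ATP sulfurylase, read 9.91, 9.75 and 9.53 in WT, 6.90, 6.81 and 6.88 in WT(hsf1), 10.42, 10.65 and 9.84 in hac1∆ and 9.53, 9.39 and 9.23 in hac1∆(hsf1). WT(hsf1) was lowest by a wide margin, and the hac1∆ arrays were spread more than the others. MET3 fell by 2.87 ± 0.16 in the WT pair and fell by 0.92 ± 0.16 in the hac1∆ pair, with an interaction of 1.94 ± 0.23 (adjusted p = 7.11e-06). STR3, cystathionine beta-lyase, had -2.51, -0.97 and an interaction of 1.54 ± 0.17, which was below 0 on a linear scale. MET5, sulfite reductase, had -2.09, -0.90 and 1.19 ± 0.18. SAM3, an S-adenosylmethionine permease gene, had -1.24, -0.82 and 0.42 ± 0.17, which lost its call when single arrays were left out. MET2 and MET28 fell in the WT pair, with -2.78 and -2.16, and had -0.26 and -0.02 without a call in the hac1∆ pair, where MET2 was called at -0.44 without hac1∆ replicate 3 and at -0.42 with array weights. Their interactions were 2.52 ± 0.18 and 2.14 ± 0.16.

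Respiratory chain and ATP synthase genes counted 21 of 36 lower in both, against 4.55% of all genes. In the interaction 33 of 36 members were higher and 1 lower, beside 35.7% and 34% of all genes. The medians were -0.96 in the WT pair and -0.21 in the hac1∆ pair, and the median interaction was 0.69. ATP17 and ATP7, of ATP synthase, had interactions of 1.01 ± 0.08 and 0.99 ± 0.11, the differences being -1.03 and -1.11 in the WT pair. NDE2, an external NADH dehydrogenase gene, moved in opposite directions, with -1.80, 1.18 and an interaction of 2.98 ± 0.15. SDH2 (YLL041C), of succinate dehydrogenase, read 10.39, 10.29 and 10.40 in WT, 8.70, 8.67 and 8.85 in WT(hsf1), 10.29, 10.22 and 10.29 in hac1∆ and 10.02, 9.78 and 9.79 in hac1∆(hsf1). WT(hsf1) was far below the rest and hac1∆(hsf1) below hac1∆ on every array, with differences of -1.62 and -0.40 and an interaction of 1.22 ± 0.10. BNA3, a kynurenine aminotransferase gene, fell in both, with -0.96 and -1.09 and an interaction of -0.13 ± 0.16 (95% interval -0.48 to 0.22). MAL11, a maltose permease gene, had -0.88, -0.95 and an interaction of -0.07 ± 0.13 (95% interval -0.35 to 0.21), and SER33, of serine synthesis, had -0.96, -0.84 and 0.12 ± 0.20 (95% interval -0.31 to 0.54).

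URA3 (YEL021W), of uracil synthesis and the gene that growth without uracil requires, read 11.88, 11.62 and 11.86 in WT, 10.89, 10.93 and 10.91 in WT(hsf1), 12.15, 12.18 and 12.06 in hac1∆ and 9.54, 9.69 and 9.58 in hac1∆(hsf1). The (hsf1) strains were below their partners without overlap, and hac1∆(hsf1) was lowest. URA3 fell by 0.88 in the WT pair and fell by 2.53 in the hac1∆ pair, with an interaction of -1.65 ± 0.09 (adjusted p = 8.77e-09; -1.57 without WT replicate 2). Other genes often used as auxotrophic markers also differed: MET17 had an interaction of 1.93 ± 0.15, ADE2 -1.63 ± 0.10, LYS2 1.37 ± 0.09, LEU2 1.09 ± 0.18 and HIS3 -0.57 ± 0.07. The labels name no plasmid and no marker genotype, so differences in marker genes between the strains cannot be set against them here.

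**Figure D4:**
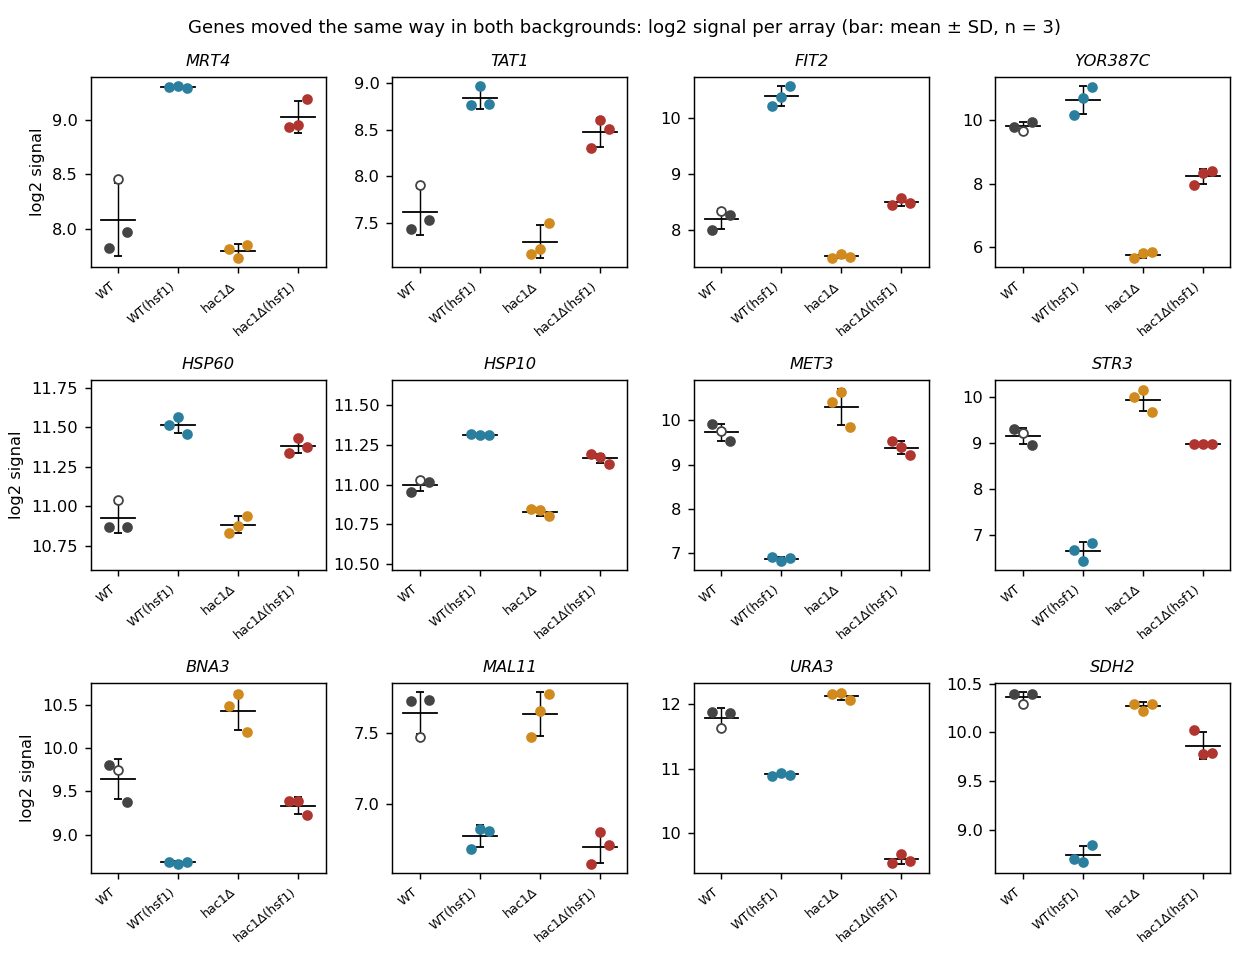
Log2 signal of 12 genes that moved the same way in both backgrounds, laid out as in the plot of opposed genes, with a point per array, the mean ± SD of n = 3 and an open circle for WT replicate 2. The (hsf1) strains lie above their partners for MRT4, TAT1, FIT2, YOR387C, HSP60 and HSP10 and below them for MET3, STR3, BNA3, MAL11, URA3 and SDH2. The size of the step differs between backgrounds for FIT2, YOR387C, MET3, STR3, URA3 and SDH2.

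Cell wall and glycolytic genes were called in both directions, beside 35.7% of all genes called higher and 34% lower. Cell wall genes counted 6 of 38 members higher and 19 lower, with a median of -0.25; PIR3, a cell wall protein gene, had 2.83 ± 0.19, UTR2, a chitin-glucan crosslinking enzyme gene, -1.87 ± 0.11, GAS1, a glucanosyltransferase gene, -1.33 ± 0.06, and CTS1, chitinase, -1.27 ± 0.13. Glycolysis and fermentation genes counted 10 of 28 members higher and 9 lower, shares close to the 35.7% and 34% of all genes, with a median of -0.07; HXK1, hexokinase, had -1.09, 1.08 and 2.17 ± 0.13, and the alcohol dehydrogenase genes ADH6 and ADH4 had -1.32 ± 0.13 and 1.25 ± 0.34. Mating-type markers were examined for the kind of cell in each strain. STE2, the receptor gene of a cells, had mean levels of 9.24 ± 0.09, 9.84 ± 0.08, 9.17 ± 0.04 and 8.67 ± 0.06 (SD, n = 3) in WT, WT(hsf1), hac1∆ and hac1∆(hsf1), above background in all strains. The a-cell list counted 2 of 7 members higher and 4 lower in the interaction, beside 35.7% and 34% of all genes. BAR1 at -1.64 ± 0.09, STE2 at -1.10 ± 0.08 and STE6 at -1.03 ± 0.13 were below 0, and MFA1 at 0.63 ± 0.14 and ASG7 at 0.53 ± 0.12 above. MFA2 at -0.33 ± 0.13 lost its call when single arrays were left out, and AGA2 at -0.06 ± 0.15 was not called.

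Among the alpha-cell markers MF(ALPHA)1, the alpha-factor precursor gene, differed between strains. It read 8.17, 8.45 and 8.88 in WT, 6.34, 6.72 and 6.88 in WT(hsf1), 6.12, 6.17 and 6.22 in hac1∆ and 6.0, 5.96 and 5.81 in hac1∆(hsf1). The WT arrays were above all others, and the hac1∆(hsf1) arrays were lowest. It fell by 1.85 in the WT pair, had -0.25 without a call in the hac1∆ pair, and had an interaction of 1.61 ± 0.22 (adjusted p = 2.91e-05). MF(ALPHA)2 was below background in every strain, SAG1 had 0.23 ± 0.10, a call lost under most of the alternatives, and STE3 (-0.15 ± 0.09) and AFB1 (-0.03 ± 0.28) were not called. The list thus counted 2 of 5 higher and 0 lower, beside 35.7% and 34% of all genes. Without WT replicate 2 the AFB1 interaction was -0.36 and was called (adjusted p = 0.0114), and the list counted 1 higher and 1 lower. Markers of haploid cells counted 2 of 6 higher and 2 lower, shares near the 35.7% and 34% of all genes. STE5 had 0.50 ± 0.09, STE18 0.42 ± 0.12, STE4 -0.60 ± 0.07 and RME1 -0.61 ± 0.07, FUS3 (0.21 ± 0.12) and GPA1 (0.14 ± 0.09) not being called. Without WT replicate 1 FUS3 and GPA1 were called, at 0.29 and 0.20, and the list counted 4 higher. What part a difference in cell type or growth state between the cultures has in these results was not tested.

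Members called against the more common direction of their list were as follows, named after their values were seen, apart from the amino acid, ER-Golgi, glycolysis, signalling and marker lists. Below 0 in lists with more members above than below were, for the cytosolic chaperones, SSA2 (-0.17), SSB1 (-2.0), SSB2 (-2.43) and CNS1 (-0.49), for oxidative stress and redox, TRX1 (-0.45), GRX3 (-0.51), GRX5 (-0.20) and GSH2 (-0.70), and for ER folding CNE1 (-0.35). In the same direction were MET1 (-0.84), MET31 (-0.38) and SAM1 (-0.51) of the sulfur genes, CIT2 (-0.25), ACO1 (-0.58) and IDP1 (-0.27) of the TCA and glyoxylate genes, and PIS1 (-0.74) and CDS1 (-0.38) of the phospholipid genes. Also below 0 were CYC1 (-0.81) of the respiratory chain, ATG17 (-0.38) of the autophagy and vacuolar list and ANT1 (-0.41) of the peroxisome list. The regulators added PDE2 (-0.96), the mitochondrial chaperones MGE1 (-1.0) and JAC1 (-0.22) and the hexose transporters HXT1 (-1.53) and HXT2 (-1.21). Above 0 in lists with more members below than above were UTP20 (0.55) and ESF1 (0.83) of ribosome biogenesis, RPA14 (0.53) and MAF1 (0.26) of the RNA polymerases, ADE16 (0.52) of purine metabolism and HMG2 (0.28), IDI1 (0.29) and ECM22 (0.24) of ergosterol synthesis. For ER translocation they were SBH1 (0.22) and WSC4 (0.37), for glycosylation and GPI anchors OST2 (1.07), ALG13 (0.64), ALG14 (0.46), PMT3 (0.93) and GPI10 (0.56), for the iron regulon FTH1 (0.64), CTH1 (0.94), HMX1 (0.59) and AFT2 (0.60), and for the cell wall PIR3 (2.83), HSP150 (0.26), TIR3 (0.69), YPS1 (0.84), RLM1 (0.32) and PST1 (0.54).

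List means were also taken array by array. The mean log2 signal of the 27 general stress genes was 10.52, 10.58 and 10.50 in WT, 8.89, 8.92 and 9.08 in WT(hsf1), 9.89, 9.99 and 9.91 in hac1∆ and 10.53, 10.51 and 10.43 in hac1∆(hsf1). WT and hac1∆(hsf1) overlapped at the top, hac1∆ lay below them and WT(hsf1) lay lowest. For the 127 ribosomal protein genes it was 9.6, 9.44 and 9.73 in WT, 10.76, 10.82 and 10.78 in WT(hsf1), 9.93, 9.83 and 9.82 in hac1∆ and 9.13, 9.03 and 9.01 in hac1∆(hsf1). Here WT(hsf1) was highest and hac1∆(hsf1) lowest, and WT replicate 2 was the WT array nearest to hac1∆(hsf1). For the 17 ER folding genes it was 9.58, 9.32 and 9.6 in WT, 9.29, 9.28 and 9.32 in WT(hsf1), 8.49, 8.47 and 8.52 in hac1∆ and 8.63, 8.55 and 8.52 in hac1∆(hsf1). WT replicate 2 was within the range of WT(hsf1), well below the other WT arrays, and the 2 strains without HAC1 lay far below both strains with it. For the 26 cytosolic chaperone genes it was 10.42, 10.54 and 10.38 in WT, 10.07, 10.09 and 10.09 in WT(hsf1), 10.23, 10.25 and 10.21 in hac1∆ and 10.70, 10.68 and 10.65 in hac1∆(hsf1). WT replicate 2 was the WT array nearest to hac1∆(hsf1), and hac1∆(hsf1) was above every other array.

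**Figure D5:**
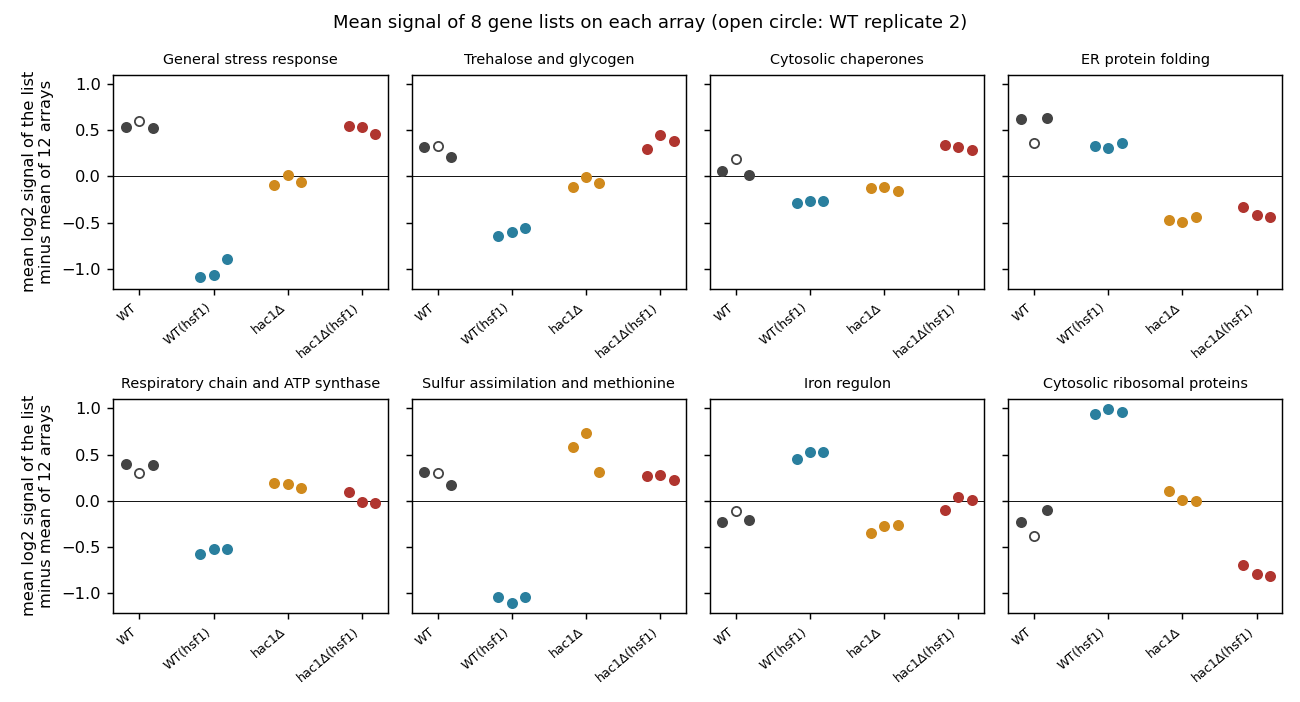
Mean log2 signal of the genes of 8 lists on each of the 12 arrays, less the mean of the 12 arrays, with the 4 strains on the horizontal axis, 3 points per strain and an open circle for WT replicate 2. WT(hsf1) is lowest for general stress, trehalose and glycogen, cytosolic chaperone, respiratory and sulfur genes and highest for iron and ribosomal protein genes, while hac1∆(hsf1) is highest for cytosolic chaperones and lowest for ribosomal protein genes.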

How the data were processed

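Each of the 12 arrays, 3 per strain, gave 1 value per probe set. The authors deposited log2 signals, a unit read from the values (4.84 to 12.75, array medians 6 to 6.07); PLIER is named in the submitters' processing notes, and the sources used here do not give normalization, offset or log base. The floor compresses differences of dim genes, and precision is limited by the number of arrays. Of 10928 probe sets, 5498 were annotated to S. cerevisiae and 1746 listed another gene, taken as Schizosaccharomyces pombe with no check of the species. The probe set of highest mean was kept for 47 genes with several, leaving 5449; 5273 exceeded background in at least 1 strain, and no gene was removed.

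The deposited values entered a linear model with a mean for each strain in limma 3.58.1 (R 4.3.3; 8 residual degrees of freedom), with empirical Bayes statistics and Benjamini-Hochberg adjustment over all genes; called means adjusted p under 0.05, and ± is the SE, which pools the spread of all strains, unless SD is stated. Differences are on the log2 scale. In data simulated for the interaction over 5449 genes, 81% of 100 genes changed by 0.5 and 98% of 100 changed by 1 were recovered, with 4.28% of calls false. The simulated noise was normal, independent between genes and equal in all strains. Few genes were changed in it, against 69.6% called in the data, so these rates need not hold for the data. Named genes were a fixed set (HAC1, HSF1, URA3, KAR2, ERO1, PDI1, SSA1, SSA4, HSP82, HSP104, HSP12), the 8 largest and 8 smallest called interactions, the 8 genes with the largest smaller difference in each class of genes called in both pairs (all above background and holding without WT replicate 2), the 4 largest interactions of each list and all members of lists of up to 12. Lists are described by counts and medians, with no set test. Members and lists were chosen with earlier results of these data known; a few misplaced list members were corrected after the data were read. Alternatives were quantile normalization, median centring, array weights, an intensity trend, a replicate block, a filter on dim genes, mean probe sets and leaving out each array; leaving out 2 arrays together and a fit of the hac1∆ pair by itself were added after the data were seen. Replicate numbers were taken to pair strains where each of the 3 same-number residual correlations was over 0.1. This held for hac1∆ with hac1∆(hsf1) (0.15 to 0.50) and for no other strains. Arrays of different numbers gave -0.46 to 0.38, with 10 of 36 over 0.1, so the cutoff alone does not establish pairing. Sequences and coordinates are not used here.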

Additional observations from a re-analysis of the deposited data

Results flagged for a closer look

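The difference between backgrounds was itself tested, and it passed for 1945 genes above 0 and 1850 below 0, among them 853 that were lower in WT(hsf1) and higher in hac1∆(hsf1) and 1009 that were higher in WT(hsf1) and lower in hac1∆(hsf1). The largest called interactions above 0, on the log2 scale, were those of SIP18 (5.05), SHH3 (4.81), GRE1 (4.58), SUL1 (4.54), SSA3 (4.35), SPG4 (4.28), TKL2 (4.23) and HEF3 (4.21). The largest below 0 were those of RPS9A (-3.15), RPS22B (-3.06), RPL17B (-3.03), RPL22B (-2.97), ASC1 (-2.94), RPS8B (-2.85), RPS24B (-2.77) and RPL6B (-2.76). Groups of 3 arrays were given no outlier test.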

How the results depend on the processing

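With single arrays left out, the genes with an interaction above 0 numbered 1839 to 1968 and those below 0 1762 to 1858; genes higher in both pairs numbered 145 to 251, lower in both 189 to 276, lower then higher 735 to 861 and higher then lower 903 to 1022. Under the other alternatives the ranges were 1840 to 2060, 1842 to 1974, 173 to 310, 230 to 355, 770 to 899 and 997 to 1092. The 310 genes higher in both came with array weights, which gave WT replicate 2 the lowest weight, and were the only one of these counts to move by over 1.5 times; the cause was not tested. Leaving out the WT and hac1∆(hsf1) arrays numbered 2 together, chosen after seeing the data, gave 1919, 1869, 265, 286, 817 and 997. With the replicate number as a block the counts were 1978, 1876, 192, 257, 878 and 1029; arrays of the same number in different strains had residual correlations from -0.25 to 0.50, with 8 of 18 above 0.1. By the rule used, the numbers paired hac1∆ and hac1∆(hsf1) alone, though 10 of 36 correlations between different numbers were above 0.1 as well. For that pair the block moved the genes higher from 1442 to 1467 and lower from 1673 to 1705. On its 6 arrays by themselves, chosen after seeing the data, the fit gave 1541 and 1757 with the block and 1415 and 1622 without. Among named genes the block ended the SCL1 call in that pair and added calls for YAP1 (interaction), MFA1 and MFA2 (WT pair). For named genes, 3954 interaction values under single alternatives kept direction and call, 56 lost the call (ATC1, SAM3, MSN4, SSQ1, MFA2, SAG1 and SSA2), 9 gained one (YAP1, AFB1, HAC1, HSP60, FUS3 and GPA1) and 0 turned. The uncalled HSF1 difference in the WT pair turned from -0.08 to 0.43 without WT replicate 2 and with both arrays numbered 2 left out, and to 0.37 with array weights, being called in each case; with single arrays left out it ranged from -0.34 to 0.43. Of the list counts, 38 values moved by over 1.5 times, nearly all of them counts of few genes such as the alpha-cell markers. The floor of the scale limits what can be said of genes near background.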

Other observations

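Some of the largest increases in the hac1∆ pair lay outside the genes described above and were chosen after their values were seen. SUC2, which encodes invertase and is repressed by glucose, read 7.34, 8.58 and 7.11 in WT, 8.08, 8.27 and 8.24 in WT(hsf1), 6.90, 6.94 and 7.03 in hac1∆ and 9.72, 9.82 and 9.45 in hac1∆(hsf1). Every hac1∆(hsf1) array was above all others, WT replicate 2 was the next highest, and the other WT arrays were below WT(hsf1). SUC2 rose by 2.71 ± 0.27 in the hac1∆ pair, and its interaction was 2.19 ± 0.39 (adjusted p = 0.000235), or 1.73 without WT replicate 2. Its difference in the WT pair was 0.52, not called, and 0.97 without that array. SIP4, a transcription factor gene of gluconeogenesis, read 6.47, 8.02 and 6.58 in WT, 7.29, 7.32 and 7.41 in WT(hsf1), 6.50, 6.52 and 6.53 in hac1∆ and 9.36, 8.80 and 9.22 in hac1∆(hsf1). Every hac1∆(hsf1) array was again above all others and WT replicate 2 was the next highest. The other WT arrays lay level with hac1∆ and below WT(hsf1). SIP4 had 2.61 ± 0.30 in the hac1∆ pair and an interaction of 2.30 ± 0.43, or 1.80 without WT replicate 2. YOR338W had 3.46 ± 0.45 in the hac1∆ pair and an interaction of 3.05 ± 0.63, or 2.28 without WT replicate 2, where that array read 9.36 against 7.01 and 7.04 on the other WT arrays.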
